A study of Rattus norvegicus with 12 samples.

Results

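Lysosomal enzymes, lysosomal membrane proteins and the subunits of the vacuolar proton pump (V-ATPase) were followed in RNA-seq libraries of the rat choroid plexus. The list holds 39 genes, chosen by the known role of their proteins but with earlier results of these data known. Of these, 35 could be paired with an Ensembl identifier among the 32883 genes of the files. The remaining 4 (GRN, NPC1, LIPA and MANBA) were not analysed here. The tissue came from male Sprague-Dawley rats of 9 weeks with free access to food and water, 6 taken at zeitgeber time 8 h (8 h after the light phase began) and 6 at zeitgeber time 20 h (8 h after the dark phase began), with no other treatment than anaesthesia by ketamine and xylazine in both groups. Each library came from 1 rat and held the plexus of the lateral and the fourth ventricles as whole tissue, and only 1 time point was sampled in each phase. The comparison asks whether genes of the choroid plexus, the epithelium that secretes the cerebrospinal fluid, differ between the phases. In whole tissue, fewer cells of a type and less RNA per cell cannot be told apart.

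Lysosomes are the acidic organelles in which proteins, glycogen, glycolipids and cholesterol esters are broken down. The V-ATPase keeps them acidic: its cytosolic V1 sector hydrolyses ATP and turns a ring in the membrane-bound V0 sector, through which protons pass. Soluble hydrolases reach the lysosome by sorting from the Golgi apparatus, and a coat of glycosylated membrane proteins lines its inner face. Many lysosomal genes carry short copies of the element GTCACGTG near their start site, which transcription factors of the TFE family (TFEB, TFE3) are known to bind, and its core CACGTG is the E-box that the clock proteins CLOCK and BMAL1 also recognise.

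Because these promoters are where the shared element lies, they are shown first. Of the 35 genes, 27 matched by symbol a RefSeq promoter sequence of 300 bases (250 before to 50 after the start site, assembly GRCr8), and both strands were searched. The sequence GTCACGTG, or its reverse complement CACGTGAC, was present in 6 of these 27 promoters (22.2%), against 620 of all 33469 promoters in the same set (1.85%) and 507 of 21851 promoters of protein-coding genes (2.32%). Its core CACGTG, which every copy of the longer element contains, was present in 7 of the 27 (25.9%), against 2148 of all promoters (6.42%) and 1533 of those of protein-coding genes (7.02%). The 6 were those of CTSD, LAMP1, GLB1, GAA, ATP6V0D1 and ATP6V0E1, and the promoter of CD63 held the core alone. The promoters of the lysosomal genes were richer in G and C, with a median of 59.3% against 55.0% for protein-coding genes, and the part of this difference in the shares was not tested. Nearly all of these genes were also identified among highly expressed genes, as given below. The shares were not set against promoters of genes at a like level. The 2 promoters with more than 1 copy of the element, those of the protease gene CTSD (2 copies) and of the membrane protein gene LAMP1 (4 copies), are printed whole, and the other 4 as the element with 20 bases on each side. All are written 5′ to 3′ on the strand of the gene, with the element in capitals. A further copy of the core in the LAMP1 promoter, outside the element, is left in lower case.
CTSD, chr1:206968772-206969071, minus strand: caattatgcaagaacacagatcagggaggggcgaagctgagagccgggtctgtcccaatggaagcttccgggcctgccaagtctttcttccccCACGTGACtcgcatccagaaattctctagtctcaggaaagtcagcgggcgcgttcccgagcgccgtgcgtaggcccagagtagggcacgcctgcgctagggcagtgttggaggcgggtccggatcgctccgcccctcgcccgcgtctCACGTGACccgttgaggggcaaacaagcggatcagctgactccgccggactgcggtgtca
LAMP1, chr16:83075014-83075313, minus strand: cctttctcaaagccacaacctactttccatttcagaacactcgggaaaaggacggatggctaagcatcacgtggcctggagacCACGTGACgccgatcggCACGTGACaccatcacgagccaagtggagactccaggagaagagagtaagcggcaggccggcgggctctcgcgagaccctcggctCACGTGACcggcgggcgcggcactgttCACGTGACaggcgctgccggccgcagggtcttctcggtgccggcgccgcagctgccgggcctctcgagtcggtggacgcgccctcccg
GLB1, chr8:122963596-122963643, plus strand: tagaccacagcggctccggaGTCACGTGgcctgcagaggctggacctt
GAA, chr10:105028268-105028315, plus strand: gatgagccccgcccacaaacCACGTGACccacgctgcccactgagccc
ATP6V0D1, chr19:50357275-50357322, minus strand: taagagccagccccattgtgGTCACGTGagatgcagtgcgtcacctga
ATP6V0E1, chr10:17007107-17007154, minus strand: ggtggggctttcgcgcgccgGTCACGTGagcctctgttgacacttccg

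Counted from the start site, the copies began at -157 and -10 in CTSD, at -167, -150, -65 and -38 in LAMP1, at -102 in GLB1, at -67 in GAA, at -54 in ATP6V0D1 and at 23 in ATP6V0E1. All copies but that of ATP6V0E1 thus began upstream of the start. A match of letters is a description of the sequence and no measurement of binding.

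**Figure D1:**
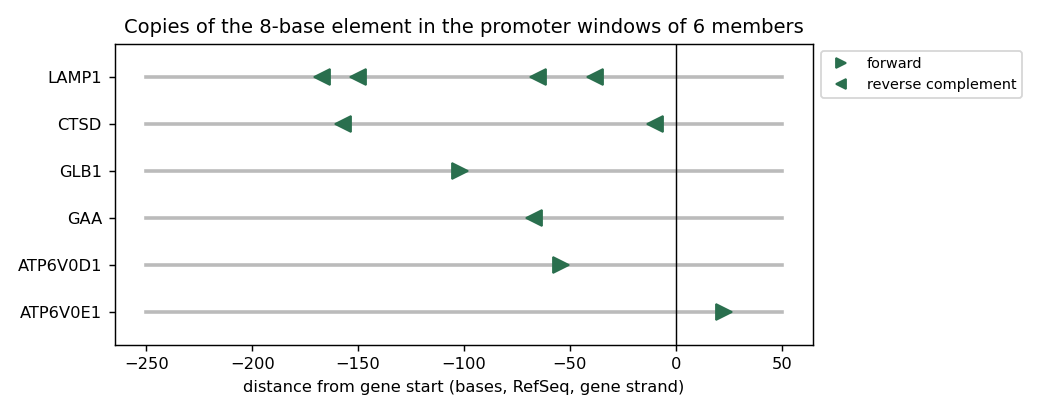
Positions of the element GTCACGTG, in either orientation, in the 6 promoters of lysosomal and V-ATPase genes that hold it. The horizontal axis is the distance from the start site in bases, each row is 1 gene and each mark 1 copy, with 4 copies in LAMP1, 2 in CTSD and 1 in each of the others.

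The libraries were compared in TPM, the abundance of a transcript corrected for its length and set to the same total in each library. Each library was divided by a scaling factor of 0.941 to 1.04, so that levels below are scaled TPM. The number of reads behind a value is unknown, and the spread between rats was used as the error throughout. Differences are given as log2 fold changes, dark phase minus light phase, of scaled TPM plus 0.5, with limma's standard error (SE) and the false discovery rate (FDR), its p-value adjusted by Benjamini and Hochberg over the 12513 genes that averaged 1 TPM or more. A gene was called at an FDR below 0.05. Of 10 markers of choroid plexus epithelium, all 10 were present in every library, and their sum, most of it TTR, was 254069 to 334931 scaled TPM in the light phase and 294252 to 321915 in the dark phase. Limma called 6 of these markers, 4 of them dark-higher and 2 light-higher. Of all 12513 genes 17.8% were called, and of the 1997 genes identified through the same list as these markers 23.7%. Macrophages are rich in lysosomes, but only 2 of 16 listed macrophage markers (CD74 and LYZ2) had an identifier independent of the comparison. Their sum was 626 to 914 scaled TPM in the light phase and 644 to 854 in the dark phase, and neither was called. PTPRC, also a listed macrophage marker, could be named only through the study's lists of differentially expressed genes and is given without a test. Its mean was 2.15 scaled TPM and its log2 fold change, dark phase minus light phase, was -0.36. All 6 of its dark-phase libraries lay below the light-phase median, but its direction holds no independent evidence. The part of macrophages was not tested. The 3 haemoglobin genes of red blood cells, whose near-identical copies can share reads, summed to 28352 scaled TPM in light-phase replicate 2, to 7538 to 9956 in the other light-phase libraries and to 4233 to 10975 in the dark phase. Light-phase replicate 2 was also the highest of its phase in the vessel markers RGS5 (311 scaled TPM, others 133 to 145), PLVAP (119, others 57.7 to 72.4) and TAGLN (92.0, others 33.4 to 65.6). It was the lowest of its phase in 12 of the 35 lysosomal and V-ATPase genes. Light-phase replicate 1 was the lowest in 9, replicates 3 and 5 in 6 each and replicate 6 in 2. Of the vessel markers, TAGLN was called as lower in the dark phase (log2 fold change -0.73, limma FDR = 0.0272). The part of these cells in the results was not tested. The total FPKM of a library divided by its total TPM, a ratio which moves with the lengths of the transcripts sampled, was 0.953 to 0.987 in the light phase and 0.934 to 0.960 in the dark phase, with medians of 0.971 and 0.944 (exact two-sided permutation test of the means, p = 0.00433). Results with this ratio as a covariate are given beside the calls, since it moves with the phase. For the same reason that fit cannot tell the ratio and the phase apart, and why a call is lost in it was not tested. Among the called markers, the limma FDR with the covariate was 0.0182 for KL, 0.00757 for PRLR and 0.05005 for OTX2. It was 0.105 for CLIC6, 0.113 for AQP1, 0.117 for SLC4A5 and 0.183 for TAGLN.

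The 35 paired genes were highly expressed, but their level was favoured by the pairing. Identifiers of 34 of them came from a list held only for its 1997 most highly expressed genes. Lysosomal genes below that cut could not enter this way, so the level is no result about lysosomal genes in general. The mean of the 35 genes over the 12 libraries ran from 29.1 to 5027 scaled TPM with a median of 196. No library held any of them at 0. PSAP, the precursor of the saposins that help to degrade sphingolipids, was the highest, and its lowest library (4593) lay above the highest library of every other member. CTSD, the aspartic protease cathepsin D, had a mean of 1438 scaled TPM and CD63, a tetraspanin of late endosomes and lysosomes, a mean of 1174. The cysteine protease gene CTSB followed with 591 scaled TPM, then the V0 ring subunit ATP6V0C with 492 and the cholesterol-binding protein gene NPC2 with 475. At the low end, ATP6V0A1 was at 25.8 to 34.9 scaled TPM and lay below every library of all other members.

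**Figure D2:**
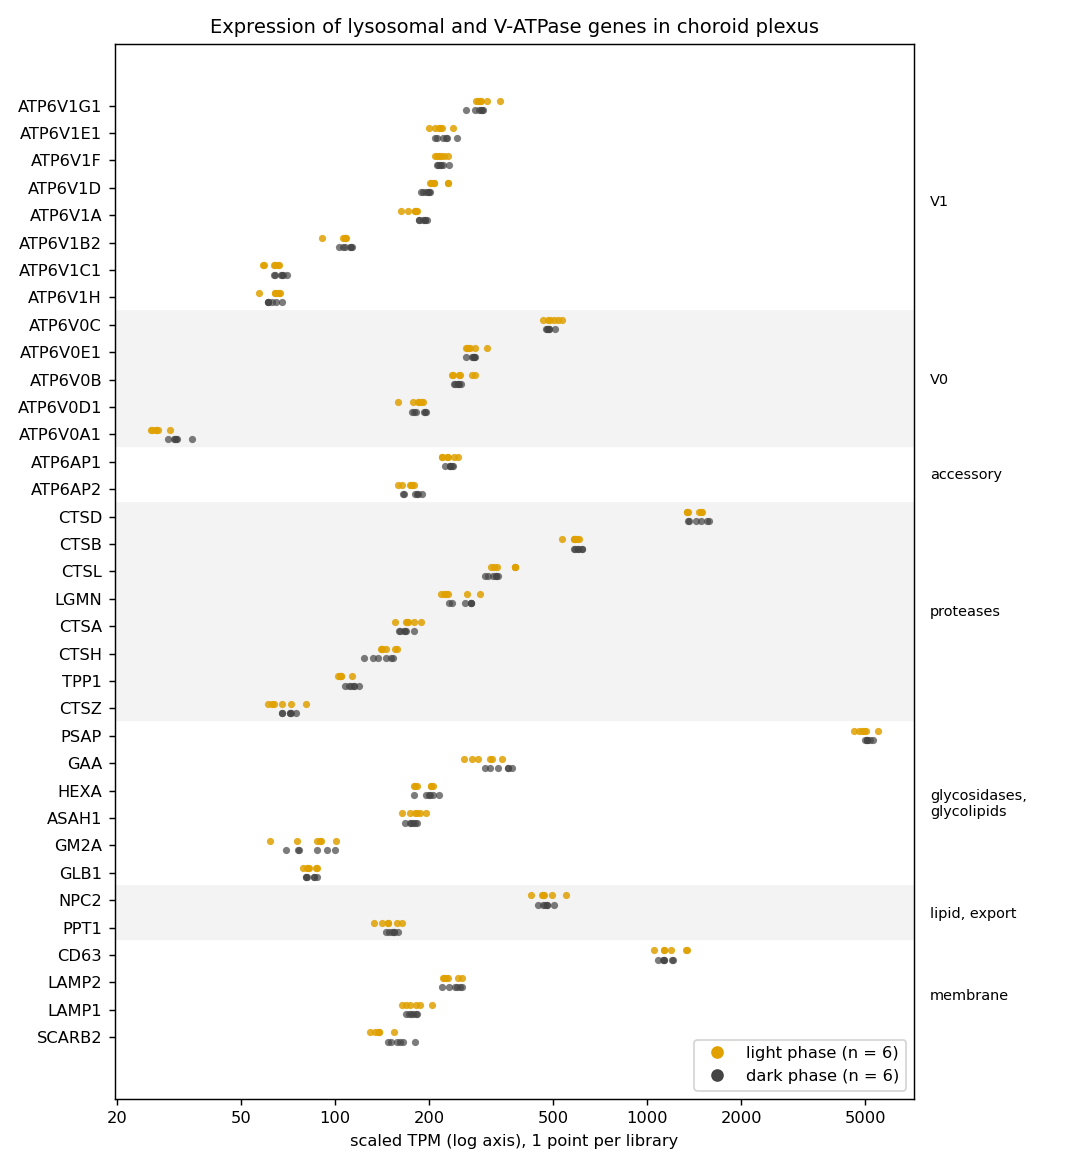
Levels of the 35 lysosomal and V-ATPase genes in the 12 libraries. The horizontal axis is scaled TPM on a log scale, each point is 1 rat, coloured by phase, and genes are ordered within their functional groups. The phases overlap in 34 of the 35 genes, and levels run from ATP6V0A1 at 25.8 to PSAP at 5484 scaled TPM.

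The identifiers of 34 genes came from the study's list of all genes, of which the 1997 most highly expressed were at hand. That of ATP6V0A1 came only from its lists of differentially expressed genes, so its difference is described without a test and it is counted apart. Of the 34, limma called 2, both up-regulated in the dark phase (ATP6V1A and SCARB2), and 0 up-regulated in the light phase, while 7 had an unadjusted p below 0.05. Over all 12513 genes 17.8% were called (9.5% with the dark phase higher, 8.34% with the light phase higher), and 30.8% had an unadjusted p below 0.05. Over the 1997 genes identified through the same list, which are closer to these genes in level, 23.7% were called (9.16% with the dark phase higher, 14.6% with the light phase higher), and 38.3% had an unadjusted p below 0.05. Libraries of the 2 phases did not overlap in 1 of the 35 genes, against 8.92% of all genes and 12.4% of those from the same list. With the ratio of FPKM to TPM as a covariate, limma called 0 of the 34, against 2.73% of all genes and 4.21% of those from the same list. In that fit 9 of the 34 had an unadjusted p below 0.05, against 2273 of all 12513 genes. The median SE of the members widened from 0.047 to 0.071 on the log2 scale.

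Without the covariate the differences of these genes were small. Their log2 fold changes ran from -0.13 (CTSL) to 0.21 (ATP6V0A1 and SCARB2), 22 above 0 and 13 below 0, with a median of 0.038 over all 35 and 0.028 over the 34, against -0.0085 over all genes and -0.035 over those of the same list. Whatever their sign, the differences had a median size of 0.048 on the log2 scale, against 0.092 in the genes of the same list and 0.116 in all genes. The 95% confidence intervals excluded a difference of more than 20% in either direction in 32 of the 34 genes, and of more than 15% in 29 of them. These intervals are those of the fit without the covariate. The median SE was 0.047 in the 34 genes and 0.052 in those of the same list, so intervals of this width are not particular to the members. The most distant bounds were -16.1% (GM2A) and 26.4% (GAA). The medians depended on the setting. Without light-phase replicate 2 the median over the 34 was 0.013, without light-phase replicate 5 it was 0.016 and without light-phase replicate 4 it was 0.044. With TPM as deposited the median over the 34 was 0.046, with 24 of the 35 above 0. With the covariate it was 0.067, against -0.0081 over all genes, with 28 of the 35 above 0, single values from -0.16 (CTSL) to 0.29 (GAA) and a median size of 0.087, against 0.134 over all genes. Among the genes that moved most with it, named after their values were seen, were LGMN (0.09 without and 0.25 with the covariate) and CTSZ (0.07 and 0.20), with limma FDRs of 0.252 and 0.262 in that fit.

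**Figure D3:**
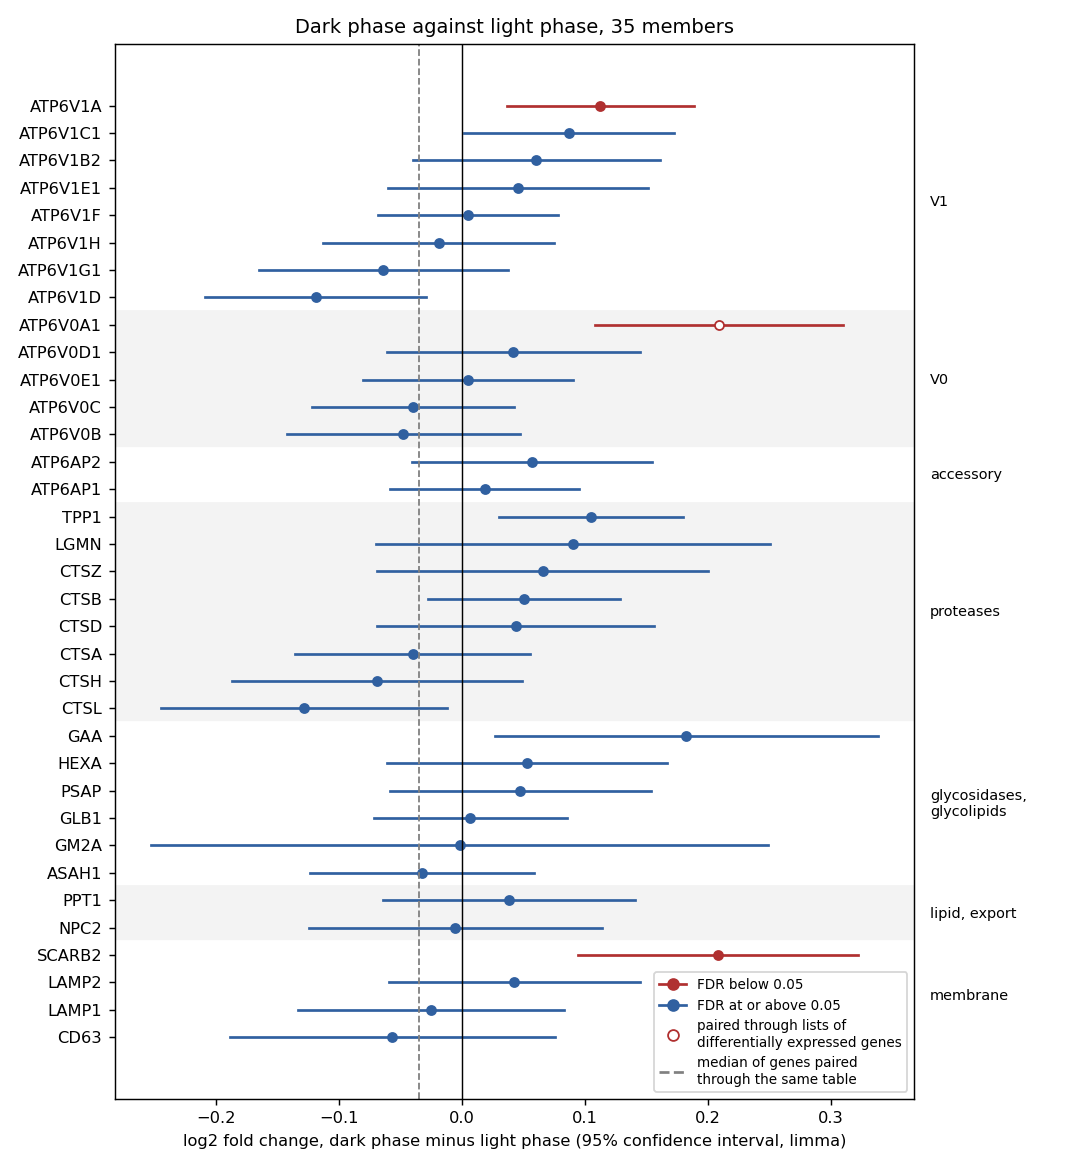
Difference between the phases for each of the 35 genes. The horizontal axis is the log2 fold change, dark phase minus light phase, with its 95% confidence interval from limma, red points are genes called at an FDR below 0.05, the open circle is ATP6V0A1, which was described without a test, and the dashed line is the median of the 1997 genes identified through the same list (-0.035). Without ATP6V0A1, the intervals of 7 of the other 34 genes exclude 0. An unadjusted limma p below 0.05 was found in 30.8% of all genes and 38.3% of those of the same list. The widest interval is that of GM2A.

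The cytosolic V1 sector was represented by 8 subunits, of which limma called 1 at an FDR below 0.05, with a median log2 fold change of 0.026. Counts of this group and those below stand beside the genes of the same list. Of these, 23.7% were called and 38.3% had an unadjusted p below 0.05. ATP6V1A (ENSRNOG00000001992) encodes the catalytic subunit A, where ATP is hydrolysed. Its light-phase libraries were at 163 to 184 scaled TPM with a median of 180.4, and its dark-phase libraries at 185 to 197 with a median of 193. It was the only member whose phases did not overlap, although the gap between them was narrow. The level was 177 ± 8.02 (SD, n = 6) in the light phase and 191 ± 4.55 (SD, n = 6) in the dark phase, with a log2 fold change of 0.11 (SE 0.035, limma FDR = 0.0419), or 8.13% with a 95% confidence interval of 2.58 to 14.0%. The call was at the edge of the threshold: it held without light-phase replicate 6 and without dark-phase replicate 5, and without each of the other 10 libraries in turn the limma FDR was between 0.0506 and 0.0889. With the covariate the log2 fold change was 0.17 and the limma FDR 0.119.

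The other V1 subunits did not pass the threshold. ATP6V1G1 (ENSRNOG00000008163), a subunit of the peripheral stalk that holds the sectors together, was the highest of them. It was at 284 to 337 scaled TPM (median 293) in the light phase and 263 to 299 (median 292) in the dark phase, with a log2 fold change of -0.06 (SE 0.047, limma FDR = 0.385). The 2 that follow were chosen after their values were seen. ATP6V1D, a subunit of the central shaft, was at 201 to 231 scaled TPM (median 207) in the light phase and 188 to 202 (median 197) in the dark phase. All 6 of its dark-phase libraries lay below the light-phase median, but the phases overlapped by 1 library of each, and the log2 fold change was -0.12 (SE 0.042, limma FDR = 0.0667). Without light-phase replicate 2 this FDR was 0.0458, and without light-phase replicate 3 it was 0.0478. ATP6V1C1, which links V1 to V0, was at 58.8 to 66.1 scaled TPM (median 64.0) in the light phase and 64.0 to 70.0 (median 67.5) in the dark phase, which gave a log2 fold change of 0.09 (SE 0.039, limma FDR = 0.153). Subunits of the one sector are assembled into the same complex. Without the covariate they lay on both sides of 0, with ATP6V1A and ATP6V1D the farthest apart. In that fit the remaining ATP6V1B2, ATP6V1E1, ATP6V1F and ATP6V1H had log2 fold changes from -0.02 to 0.06. With the covariate ATP6V1D was at -0.05 (limma FDR = 0.704), and ATP6V1G1 (0.0056) and ATP6V1H (0.051) moved above 0.

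Of the 5 subunits of the membrane sector V0, ATP6V0C (ENSRNOG00000006542) encodes the proteolipid that forms most of the turning ring and is present in several copies per pump. It was at 465 to 535 scaled TPM (median 496) in the light phase and 474 to 507 (median 482) in the dark phase. Even its lowest library lay above the highest library of every other subunit of the pump, 337 for ATP6V1G1. The phases overlapped, and the log2 fold change was -0.04 (SE 0.038, limma FDR = 0.518), with a confidence interval of -8.11 to 2.98%. ATP6V0B, ATP6V0D1 and ATP6V0E1 lay between -0.05 and 0.04 on the log2 scale, none of them called.

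ATP6V0A1 (ENSRNOG00000036814) encodes isoform a1 of the large V0 subunit, which forms the path of the protons together with the ring. It was at 25.8 to 29.5 scaled TPM (median 26.7) in the light phase and 29.2 to 34.9 (median 30.9) in the dark phase. All 6 dark-phase libraries lay above the light-phase median, and the ranges overlapped through light-phase replicate 4. The log2 fold change was 0.21 (SE 0.047), or 15.6% with an interval of 7.82 to 24.0%. Since this gene could be named only because the study had listed it as differentially expressed, the difference is no independent observation. Isoform a2, ATP6V0A2, which is no member of the list, was identified through the study's list of all genes. It was at 61.0 to 75.7 scaled TPM, with a log2 fold change of 0.03 (SE 0.052, limma FDR = 0.782). All its libraries lay above those of ATP6V0A1, but only highly expressed genes could be identified through that list. This order was thus favoured by the pairing.

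The accessory proteins of the pump differed little. ATP6AP1 (ENSRNOG00000054352), which takes part in the assembly of V0, was at 219.99 to 248 scaled TPM (median 229) in the light phase and 225 to 239.7 (median 234) in the dark phase, with a log2 fold change of 0.02 (SE 0.036, limma FDR = 0.767). ATP6AP2 (ENSRNOG00000003858), also known as the prorenin receptor, was at 159 to 179.7 scaled TPM (median 174) in the light phase and 165 to 190.3 (median 182) in the dark phase, with a log2 fold change of 0.06 (SE 0.045, limma FDR = 0.420). Both sets of libraries overlapped. The 15 subunits and accessory proteins of the pump together summed to 2998 ± 125 (SD, n = 6) in the light phase and 2994 ± 58.2 (SD, n = 6) in the dark phase in scaled TPM, a difference of -0.117%.

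Of the 8 lysosomal proteases, limma called 0, with 2 at an unadjusted p below 0.05, against 38.3% of the genes of the same list. CTSD (ENSRNOG00000020206), whose promoter is shown above, was the most abundant. It was at 1341 to 1501 scaled TPM (median 1409) in the light phase and 1348 to 1573 (median 1458) in the dark phase, which gave a log2 fold change of 0.04 (SE 0.052, limma FDR = 0.610) with a confidence interval of -4.64 to 11.5%. TPP1 (ENSRNOG00000019212), a peptidase that removes tripeptides from the ends of proteins, was at 103 to 113 scaled TPM (median 104.3) in the light phase and 108 to 119.7 (median 114) in the dark phase. All 6 dark-phase libraries lay above the light-phase median, and only light-phase replicate 4 reached into the range of the dark phase. Its log2 fold change was 0.11 (SE 0.035, limma FDR = 0.0532), a value that missed the threshold. Without light-phase replicate 4 the limma FDR was 0.0219, and without dark-phase replicate 1 it was 0.0401.

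CTSL, the cysteine protease cathepsin L, had the lowest log2 fold change of all members and was chosen after its value was seen. It was at 316 to 378 scaled TPM (median 354) in the light phase and 303 to 332 (median 324) in the dark phase, and all 6 dark-phase libraries lay below the light-phase median. The phases overlapped, and the log2 fold change of -0.13 (SE 0.054) had a limma FDR of 0.125. The other cathepsins CTSA, CTSB, CTSH and CTSZ and the asparaginyl protease LGMN had log2 fold changes from -0.07 to 0.09. The 8 proteases summed to 3083 ± 138 (SD, n = 6) in the light phase and 3132 ± 98.7 (SD, n = 6) in the dark phase in scaled TPM.

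The 6 genes of glycogen and glycolipid breakdown held 0 calls by limma and 1 unadjusted p below 0.05, again against 38.3% in the same list. GAA (ENSRNOG00000047656) encodes acid alpha-glucosidase, which degrades glycogen, and was at 259 to 343 scaled TPM (median 301) in the light phase and 302 to 370.4 (median 346) in the dark phase. All 6 dark-phase libraries lay above the light-phase median, but 3 light-phase libraries lay within the dark-phase range. The log2 fold change was 0.18 (SE 0.072, limma FDR = 0.102), with a confidence interval of 1.88 to 26.4%, and without light-phase replicate 3 the limma FDR was 0.0446. PSAP (ENSRNOG00000000571) was at 4593 to 5484 scaled TPM (median 4910) in the light phase and 5001 to 5295 (median 5066) in the dark phase. All 6 dark-phase libraries lay above the light-phase median, though light-phase replicate 4 lay above them all, and the log2 fold change was 0.05 (SE 0.049, limma FDR = 0.550). The beta-galactosidase gene GLB1, the hexosaminidase subunit gene HEXA, its activator gene GM2A and the ceramidase gene ASAH1 lay between -0.03 and 0.05 on the log2 scale. GM2A had the least precise difference of all members, with an SE of 0.116 and an interval of -16.1 to 18.9%.

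Of the genes of lipid and acyl hydrolysis and cholesterol export, only PPT1 and NPC2 had identifiers, neither was called by limma, and 0 of these 2 had an unadjusted p below 0.05. NPC2 (ENSRNOG00000012062), which binds cholesterol inside the lysosome and passes it on to NPC1, was at 424 to 551 scaled TPM (median 465) in the light phase and 447 to 503 (median 474) in the dark phase. Its log2 fold change was -0.01 (SE 0.055, limma FDR = 0.963). PPT1 (ENSRNOG00000012616), the thioesterase that removes palmitate from proteins, was at 134 to 165 scaled TPM (median 148) in the light phase and 146 to 159 (median 154) in the dark phase, with a log2 fold change of 0.04 (SE 0.047, limma FDR = 0.627). In both genes the dark-phase range lay within the light-phase range.

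Of the 4 lysosomal membrane proteins, limma called 1, up-regulated in the dark phase, where 23.7% of the genes of the same list were called in either direction. SCARB2 (ENSRNOG00000002225), also known as LIMP-2, is a membrane protein that also serves as a sorting receptor on the way to the lysosome. It was at 129 to 155 scaled TPM (median 138) in the light phase and 147 to 179.96 (median 159.97) in the dark phase. All 6 dark-phase libraries lay above the light-phase median, and light-phase replicate 4 was the library that reached into the range of the dark phase. The level was 139 ± 8.50 (SD, n = 6) in the light phase and 161 ± 11.5 (SD, n = 6) in the dark phase, with a log2 fold change of 0.21 (SE 0.053, limma FDR = 0.0163), or 15.6% with an interval of 6.80 to 25.1%. Without each library in turn the limma FDR stayed between 0.00692 and 0.0370, and with the covariate the log2 fold change was 0.23 and the limma FDR 0.176.

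CD63 (ENSRNOG00000007650) was the most abundant membrane protein, at 1053 to 1340 scaled TPM (median 1164) in the light phase and 1080.4 to 1213 (median 1136) in the dark phase, with a log2 fold change of -0.06 (SE 0.061, limma FDR = 0.574). LAMP1 and LAMP2, the main glycoproteins of the lysosomal coat, had log2 fold changes of -0.03 and 0.04, with limma FDRs of 0.775 and 0.582.

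**Figure D4:**
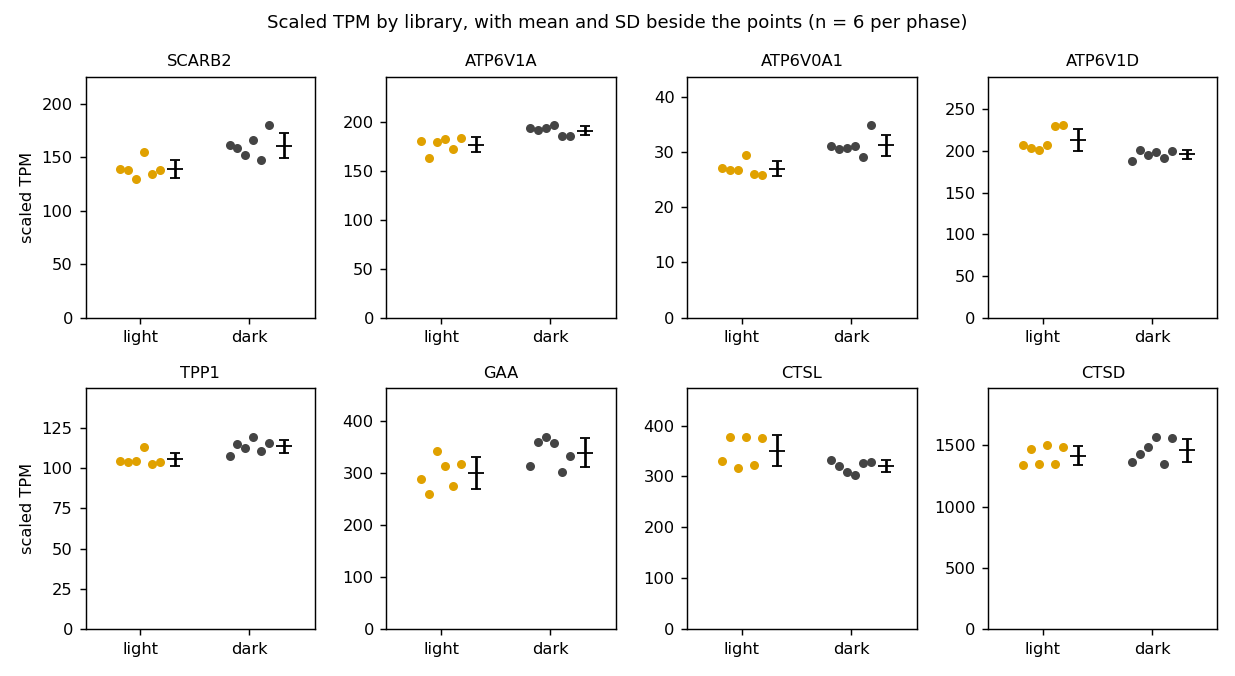
Scaled TPM of 8 genes (SCARB2, ATP6V1A, ATP6V0A1, ATP6V1D, TPP1, GAA, CTSL and CTSD) in each rat. The vertical axis of each panel is scaled TPM, points are libraries, and the bar is the mean ± SD of the 6 libraries of a phase. The phases do not overlap only in ATP6V1A, at 163 to 184 against 185 to 197.

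Among the genes that hold the element GTCACGTG in the promoters shown above, the log2 fold changes lay between -0.03 (LAMP1) and 0.18 (GAA) with a median of 0.02, and limma called 0 of these 6. The 21 genes with a promoter sequence but without the element lay between -0.13 and 0.21 with a median of 0.0054. Both called genes, ATP6V1A and SCARB2, were among those 21, as was ATP6V0A1, which is described without a test. Of all genes 17.8% were called, and of those from the same list 23.7%. The difference between these sets was not tested.

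Libraries differed from each other more in the light phase than in the dark phase. The coefficient of variation of these genes between rats had a median of 6.11% in the light phase (3.61 to 16.1%) and of 3.86% in the dark phase (1.94 to 14.0%), and it was larger in the light phase in 30 of the 35 genes. The same held in 66.7% of the genes of the same list, whose medians were 6.69% and 5.52%. Light-phase replicate 4 had the highest levels: 33 of the 35 genes lay above the mean of their phase in it, with a median deviation of 0.087 on the log2 scale. Light-phase replicate 6 had a median deviation of 0.057 and light-phase replicate 2 one of -0.065, while the dark-phase libraries lay between -0.039 and 0.023. Light-phase replicate 4 also had the lowest scaling factor (0.941) and the highest ratio of FPKM to TPM (0.987), and the part of these values in its levels was not tested. Summed over all 35 genes, the level was 13683 to 15406 scaled TPM in the light phase and 14213 to 14617 in the dark phase, the dark-phase mean being 224 scaled TPM (1.57%) above that of the light phase. This difference was 456 without light-phase replicate 4 and 124, 126 and 112 without light-phase replicates 1, 2 and 5, and 415 with TPM as deposited.

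Further genes of the lysosome were taken from 8 lists of 115 genes in all, of which 40 were identified through the study's list of all genes. Limma called 0 of the 40 as up-regulated in the dark phase and 5 as up-regulated in the light phase, while 8 had an unadjusted p below 0.05. These counts are to be read against the genes of the same list. Of those, 9.16% were called with the dark phase higher and 14.6% with the light phase higher, and 38.3% had an unadjusted p below 0.05. With the ratio of FPKM to TPM as a covariate limma called 0 of the 40, with 5 at an unadjusted p below 0.05. In that fit 4.21% of the genes of the same list were called, and 2273 of all 12513 genes had an unadjusted p below 0.05. No call was made among 15 other lysosomal hydrolases, whose log2 fold changes lay between -0.08 and 0.09, among 3 other lysosomal membrane proteins, 2 genes of enzyme sorting, 6 autophagosome proteins or 2 other subunits of the pump. Of the latter, ATP6V0E2, an isoform of the small subunit e, had a log2 fold change of -0.06 (SE 0.050, limma FDR = 0.490).

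Of the 3 genes of V-ATPase assembly and regulation, TMEM9, which binds the accessory protein ATP6AP2 and favours assembly of the pump, was called. It was at 68.1 to 78.3 scaled TPM (median 72.2) in the light phase and 51.1 to 62.6 (median 56.6) in the dark phase, without overlap. The log2 fold change was -0.35 (SE 0.055, limma FDR = 0.000957). Without each library in turn the limma FDR was between 0.000782 and 0.00293, and with the covariate the log2 fold change was -0.27 and the limma FDR 0.117. RNASEK, a small protein bound to V0 and the most abundant of the 3, had a log2 fold change of -0.05 (limma FDR = 0.518) at a mean of 596 scaled TPM. ROGDI, which takes part in V-ATPase assembly, is given because it completes the 3 and lay on the other side of 0. It was at 43.8 to 57.2 scaled TPM (median 51.8) in the light phase and 55.8 to 60.004 (median 57.2) in the dark phase, with all 6 dark-phase libraries above the light-phase median. Its log2 fold change of 0.16 (SE 0.053) missed the threshold with a limma FDR of 0.0539, which became 0.0262 without light-phase replicate 4, and with the covariate the log2 fold change was 0.29 and the limma FDR 0.0606.

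Of the 6 genes of nutrient sensing on the lysosome, limma called 3, all lower in the dark phase, where 8.34% of all genes and 14.6% of those from the same list were light-higher. The list was not tested as a set. LAMTOR4 and LAMTOR5 are subunits of Ragulator, the complex that anchors the Rag GTPases to the lysosome, and RRAGD is one of these GTPases. LAMTOR5 was at 69.9 to 89.3 scaled TPM (median 75.5) in the light phase and 62.3 to 73.3 (median 67.1) in the dark phase, which gave a log2 fold change of -0.21 (SE 0.057, limma FDR = 0.0231). LAMTOR4 was at 88.4 to 99.0 scaled TPM (median 91.7) in the light phase and 74.5 to 89.0 (median 84.7) in the dark phase, which gave a log2 fold change of -0.16 (SE 0.048, limma FDR = 0.0328). RRAGD was at 55.4 to 67.9 scaled TPM (median 64.5) in the light phase and 54.3 to 58.9 (median 56.4) in the dark phase, which gave a log2 fold change of -0.16 (SE 0.049, limma FDR = 0.0432). The ranges of the phases overlapped in all 3. LAMTOR5 missed the threshold without light-phase replicate 4 (limma FDR 0.0565) and without dark-phase replicate 3 (0.0536). LAMTOR4 missed it without each of light-phase replicates 1, 4 and 5 and dark-phase replicates 1, 4 and 6 (limma FDR 0.0519 to 0.0786), and RRAGD without each library but light-phase replicate 2 (0.0504 to 0.0922). With the covariate the log2 fold changes were -0.11 for LAMTOR5, -0.04 for LAMTOR4 and -0.12 for RRAGD, with limma FDRs of 0.553, 0.769 and 0.451. LAMTOR2, the most abundant of the 6, had a log2 fold change of -0.07 (limma FDR = 0.290).

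The inhibitors of the cysteine cathepsins were all 3 measured. CST3, the secreted cystatin C, was at 31853 to 43471 scaled TPM (median 36092) in the light phase and 33597 to 36949 (median 34611) in the dark phase, above every lysosomal enzyme. Its log2 fold change was -0.08 (SE 0.093, limma FDR = 0.617). CSTB, the cytosolic cystatin B, was at 187 to 249 scaled TPM (median 229) in the light phase and 159 to 200.2 (median 182) in the dark phase, which gave a log2 fold change of -0.29 (SE 0.076, limma FDR = 0.0192), and the ranges overlapped. Without each library in turn its limma FDR stayed between 0.00779 and 0.0442, and with the covariate it was 0.319. CST6, the third cystatin, was at 42.9 to 64.1 scaled TPM in the light phase and 49.997 to 65.7 in the dark phase, with a log2 fold change of 0.14 (SE 0.103, limma FDR = 0.393). Among the autophagosome proteins GABARAP was lower in the dark phase by a log2 fold change of -0.12 that missed the threshold (limma FDR = 0.0887), though without dark-phase replicate 2 it passed (limma FDR = 0.0380). Of the sorting and hydrolase lists, VPS29 of the retromer had a log2 fold change of -0.09, IDS of 0.09 and RNASET2 of 0.04, and of the other membrane proteins LAPTM4A had -0.06 and LAPTM4B 0.09.

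**Figure D5:**
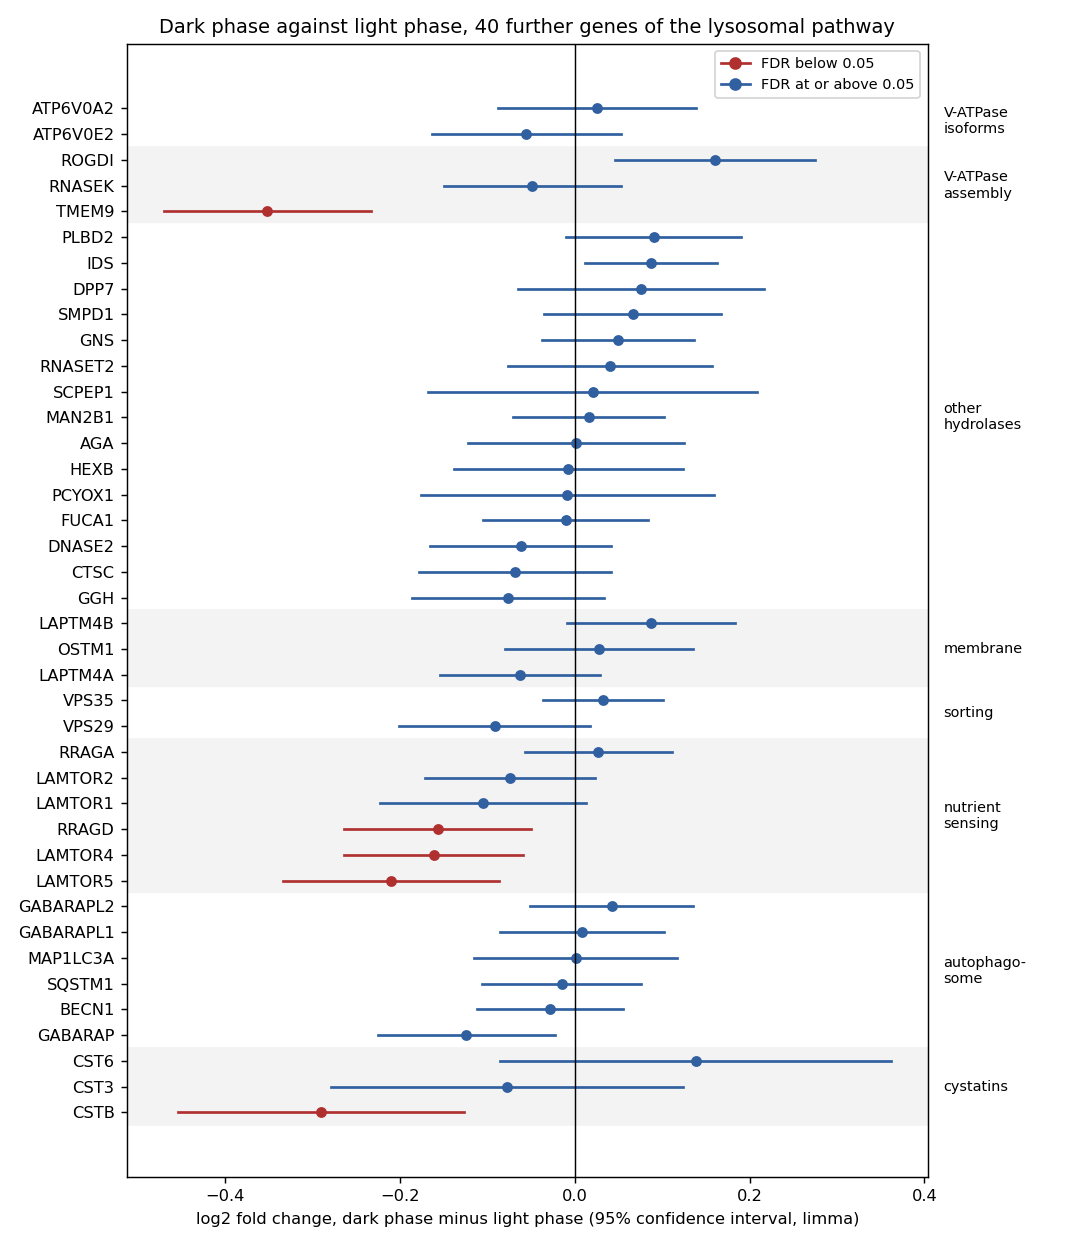
Difference between the phases for the 40 further lysosomal genes, grouped by list. The horizontal axis is the log2 fold change, dark phase minus light phase, with its 95% confidence interval from limma, and red points are the 5 genes called at an FDR below 0.05 (TMEM9, LAMTOR5, LAMTOR4, RRAGD and CSTB), all below 0.

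A further 11 genes of these lists could be named only through the study's lists of differentially expressed genes, and their values are given without a test. The receptors that sort hydrolases to the lysosome were among them: IGF2R, the mannose 6-phosphate receptor, was at 29.7 to 33.6 scaled TPM in the light phase and 34.9 to 40.8 in the dark phase, and SORT1, or sortilin, at 34.98 to 40.2 and 39.0 to 42.2. FLCN and its partner FNIP2, which regulate the Rag GTPases, were at 28.2 to 31.9 and 3.69 to 5.67 scaled TPM in the light phase, and at 32.8 to 40.1 and 5.73 to 7.74 in the dark phase. The kinase gene ULK1, which starts autophagy, was at 18.3 to 20.7 scaled TPM in the light phase and 21.0 to 24.1 in the dark phase. The chloride transporter gene CLCN7 was at 18.1 to 20.4 scaled TPM in the light phase and 16.0 to 18.1 in the dark phase, and the retromer gene VPS26B at 38.0 to 42.6 and 35.1 to 36.2. DMXL2, CTSS, MTOR and RPTOR had log2 fold changes of -0.15, 0.40, 0.17 and 0.10. As these genes were listed because they differed between the phases, their directions hold no independent evidence.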

How the data were processed

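RNA of 12 choroid plexuses, 6 from each phase, was sequenced by the authors as paired 150-base reads on an Illumina NovaSeq after library preparation with the NEB Next Ultra kit. Reads were mapped to Rnor_6.0 (Ensembl release 104) with STAR 2.7.9a and quantified with RSEM 1.3.3, as the study's methods and processing notes give it. The deposited TPM values are corrected for transcript length and sum to the same total in each library. The FPKM values, deposited beside them, were used only for the ratio of their total to that of TPM in each library. The notes also name DESeq2 3.16, which the authors ran on read counts. As TPM is no count, limma 3.58.1 in R 4.3.3 was used here in its place.

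Libraries were scaled by trimmed means of their TPM ratios (30% of ratios and 5% of levels trimmed at each end), and log2 of the scaled TPM plus 0.5 was fitted with phase as the only term and limma's trended empirical Bayes variances, for 12513 genes that averaged 1 TPM or more. The pseudocount understates changes of low genes. Groups follow the sample titles, which give the zeitgeber time. As TPM holds no read numbers, the depth of a library and the counting error of a gene are unknown. Of 66 pairs of libraries 0 were identical, with correlations of log2 TPM of 0.958 to 0.983. On simulated data of 12513 genes with 200 changed, limma recovered 68% of changes of 0.5 and 92% of changes of 1 on the log2 scale, sizes above those of the members here.

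Symbols were paired with identifiers through the study's supplementary gene tables. Of the 39 members, 35 were paired and all 35 passed the filter. An item outside the members is not reported here. The members and lists were chosen with earlier results of these data known. Named in full were the called members and, in each group, the gene with the highest mean TPM and that with the smallest p. In the further lists the same rule applied, with at most 4 genes in a list. Other named genes were chosen after their values were seen. Promoters came from RefSeq (GRCr8), a different assembly from that of the values, and were matched by symbol alone. The alternatives were no scaling, median-of-ratios scaling, pseudocounts of 0.1 and 1, no filter, a filter at 5 TPM, array weights, robust variances, a replicate block, the ratio as a covariate, and each library left out. Python 3.11.15 served for the remainder (pandas 2.3.3, numpy 2.4.6, scipy 1.17.1, matplotlib 3.10.9).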

Additional observations from a re-analysis of the deposited data

Results flagged for a closer look

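Among the 35 genes, the highest or lowest of the 6 libraries of a phase was set apart from the other libraries where its gap to the nearest of them, divided by the whole range, exceeded Dixon's critical value of 0.625. Of 70 groups of 6 libraries, 9 held such a library, where chance at 1 in 20 gives 3.5. In the light phase, replicate 4 was the highest in 3 genes: ATP6V0A1 (29.5 scaled TPM, next 27.1), TPP1 (113, next 105) and SCARB2 (155, next 139). Light-phase replicate 2 was the lowest in ATP6V1B2 (90.8, next 106) and in ATP6V1H (57.2, next 64.1), and light-phase replicate 5 in CTSB (533, next 582). In the dark phase the marked values were those of replicate 6 in ATP6V0A1 (34.9, next 31.1), of replicate 2 in ATP6V0C (507, next 485) and of replicate 5 in ATP6V0E1 (263, next 276). SCARB2 remained called by limma without light-phase replicate 4, and TPP1 was called only with that library or dark-phase replicate 1 left out, as far as the 12 fits without 1 library go.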

How the results depend on the processing

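Results were recomputed under 10 alternatives and with each of the 12 libraries left out. Of the 34 members, SCARB2 was called by limma in all fits but that with the covariate. The count of dark-higher members was 4 with TPM as deposited (SCARB2, ATP6V1A, TPP1 and GAA), 1 without a filter, 1 with the replicate block, 0 with the covariate, and 1 to 2 without 1 library. The count of light-higher members was 1 with array weights or the 5 TPM filter (ATP6V1D) and 0 to 1 without 1 library. By group, the V1 count was 2 with the 5 TPM filter or array weights, 0 without a filter, with the replicate block or with the covariate, and 0 to 1 without 1 library. The protease count was 1 with TPM as deposited, the 5 TPM filter or array weights, and 0 to 1 without 1 library. The count for glycogen and glycolipid breakdown was 1 with TPM as deposited and 0 to 1 without 1 library, and that of membrane proteins was 0 with the covariate. Over all genes, the covariate left 212 dark-higher and 129 light-higher genes. In the further lists 1 gene (ROGDI) was dark-higher with TPM as deposited, the 5 TPM filter or array weights and 0 to 1 without 1 library, while the light-higher count was 0 with the covariate and 2 to 5 without 1 library. The causes were not tested.

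Of the 50 genes followed singly, 18 changed sign in at least 1 fit, none of them called in any fit. With the covariate the log2 fold changes that changed sign were 0.0056 for ATP6V1G1, 0.051 for ATP6V1H, 0.049 for ATP6V0B, 0.030 for ATP6V0C, -0.0031 for CTSB, 0.080 for ASAH1, 0.087 for NPC2, 0.026 for CD63, 0.034 for ATP6V0E2, 0.045 for LAPTM4A, 0.037 for VPS29, 0.023 for LAMTOR2 and 0.073 for CST3. With array weights they were -0.00047 for ATP6V1F, 0.037 for GM2A and 0.0022 for LAMP1, with TPM as deposited 0.016 for GM2A and 0.013 for NPC2, and without a filter 0.0013 for GM2A. Without 1 library, ATP6V1F lay between -0.012 and 0.024, ATP6V0E1 between -0.0081 and 0.036, GLB1 between -0.0082 and 0.023, GM2A between -0.087 and 0.049, NPC2 between -0.042 and 0.040, and LAMP1 between -0.052 and 0.0093.

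With the replicate number as a block, limma called ATP6V1A no longer (FDR 0.0829), nor LAMTOR4 (FDR 0.0521), and called 845 dark-higher and 746 light-higher genes in all. Libraries with the same number did not deviate together, with correlations of -0.107 to 0.047, and in 0 of 6 cases was the own number the best match. The values thus gave no sign of pairing by number. They cannot tell whether rats of the same number were handled together. The read depth is unknown, and only the spread between 6 rats per phase limits the differences.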
